A study of Mus musculus with 8 samples.

Results

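The genes described are 10 enzymes that lengthen or desaturate fatty acids: the elongases Elovl1, Elovl2, Elovl3, Elovl5, Elovl6 and Elovl7, and the desaturases Fads1, Fads2, Fads3 and Scd2. They were taken by symbol from the 52636 genes of the files, and all 10 were among the 15562 genes that had enough counts to be tested. RNA of whole liver was sequenced from C57BL/6 mice that were 8 weeks old. All mice carried floxed alleles of Ctcf (fl/fl), the gene of a zinc finger protein that takes part in folding chromatin into loops. In 4 samples no Cre recombinase was present (Albcre-, called WT), and in the other 4 an albumin promoter, active mainly in hepatocytes, drove Cre (Albcre+, called cKO). Sex, the hour of collection and whether each sample is a separate mouse are not stated in the labels. Since neither group has Cre with intact Ctcf alleles, the effects of Cre itself and of Ctcf loss cannot be told apart.

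Fatty acids are built up to palmitate in the cytosol, and membrane enzymes of the endoplasmic reticulum then extend and desaturate them. Each turn of elongation begins with an Elovl enzyme, which condenses an acyl-CoA with malonyl-CoA, and the chain length and saturation that the Elovl enzyme accepts set which fatty acids are made. Desaturases insert double bonds with electrons passed on by cytochrome b5. In liver, Elovl6 and the Scd enzymes shape the saturated and monounsaturated fatty acids made from palmitate. Fads2, Elovl5, Fads1 and Elovl2 act in turn on dietary polyunsaturated fatty acids on the way to arachidonic and docosahexaenoic acid.

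The promoters of Elovl6 and Elovl5 are shown because they had the largest increases among the members with ample counts and an entry in the RefSeq promoter table (build GRCm38.p6), which held 7 of the 10 genes. Each line gives the 250 bases before the annotated start, 5′ to 3′ on the plus strand. In Elovl6 (chr3:129532136-129532385) the capitals mark a match to the core of the CTCF motif and a nuclear receptor half-site, AGGTCA read on the other strand. In Elovl5 (chr9:77917115-77917364) they mark an E-box, CACGTG, the kind of site bound by ChREBP and by clock factors, and 2 NF-Y boxes, CCAAT read on the other strand.
Elovl6: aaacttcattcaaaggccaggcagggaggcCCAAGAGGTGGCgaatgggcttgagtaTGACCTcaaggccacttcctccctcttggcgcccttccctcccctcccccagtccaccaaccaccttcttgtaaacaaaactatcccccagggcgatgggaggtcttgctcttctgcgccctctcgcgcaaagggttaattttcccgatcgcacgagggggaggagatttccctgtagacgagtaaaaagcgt
Elovl5: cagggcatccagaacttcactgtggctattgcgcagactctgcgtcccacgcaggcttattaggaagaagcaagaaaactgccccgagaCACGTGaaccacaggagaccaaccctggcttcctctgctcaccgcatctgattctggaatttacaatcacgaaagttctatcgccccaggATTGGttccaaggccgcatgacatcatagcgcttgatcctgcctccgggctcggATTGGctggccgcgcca

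Windows of 300 bases were searched on both strands for 6 motifs. Elovl3, Fads1 and Scd2 had no entry, so their promoters were not searched. The CTCF core was found in 0.916% of 32851 promoters. Among the 7 members with an entry it was found in Elovl6, where it begins at position -220 from the start. The E-box stands in 7.15% of promoters and begins at -161 in Elovl5. The NF-Y box is in 37.4% of promoters, and Elovl1 and Fads3 hold it too. The nuclear receptor half-site, in 16.3% of promoters, was also found in Elovl1. GC boxes, GGGCGG, are in 35.7% of promoters and were found in Elovl1, Elovl2, Elovl7, Fads2 and Fads3. The members' windows were richer in G and C, with a median of 70.7% against 52.7% for all promoters. Elovl1 and Elovl2 had multiple windows, and a match in any of them is named here. A form of the sterol regulatory element, TCACNCCAC, which 1.24% of promoters hold, was in none of the members' windows. The marked matches do not overlap each other, and a match is a description of letters, not a measured binding site.

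Assigned counts per library lay between 43.9 M and 57.3 M. WT libraries averaged 46.1 ± 2.93 M and cKO libraries 52.4 ± 3.29 M (SD, n = 4), a difference with p = 0.0571 in an exact permutation test (two-sided, smallest possible p 0.0286). The targeted gene Ctcf averaged 16.5 ± 0.41 CPM (counts relative to the TMM-scaled library size) in WT against 12.2 ± 0.946 CPM in cKO, with every cKO library below every WT library (log2 change -0.44, SE 0.08, edgeR adjusted p = 0.00177). Of all genes tested, 30.1% were called at an edgeR adjusted p under 0.05, with 15.2% higher and 14.9% lower in cKO. Hepatocyte markers were abundant throughout: 11 of 12 listed symbols were found in the files, and their summed TPM (a level corrected for transcript length) ran from 59249 to 79925 in WT and from 73098 to 84406 in cKO.

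Of the 10 members, 7 rose, 1 fell and 2 did not pass, where 15.2% of all tested genes rose and 14.9% fell. The median log2 change was 0.41, against -0.01 over all tested genes. The counts of this paragraph and the median include Elovl7, which had enough counts to be tested only through the cKO libraries, where it was higher. Elovl5, which elongates polyunsaturated fatty acids, and Elovl6, which turns palmitate into stearate, rose by 1.76-fold and 1.97-fold. Elovl3, an elongase of saturated and monounsaturated chains, fell to 0.233 of its WT level. The desaturases Fads1 and Fads2, which serve the polyunsaturated pathway, had positive log2 changes that did not pass. In CPM the genotypes did not overlap for 7 members, of which 6 were higher and 1 lower in cKO, where 15.0% and 15.6% of all tested genes were so placed. In TPM, which carries no TMM factor, 9 members were higher and 1 lower without overlap, and the shares over all tested genes were 25.8% and 5.78%. The median of all genes moved between these scales: it was -0.01 with TMM, 0.10 with library size alone and 0.15 in log2(TPM + 0.1), so that TPM ratios of cKO to WT lie above those in CPM for genes in general.

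**Figure D1:**
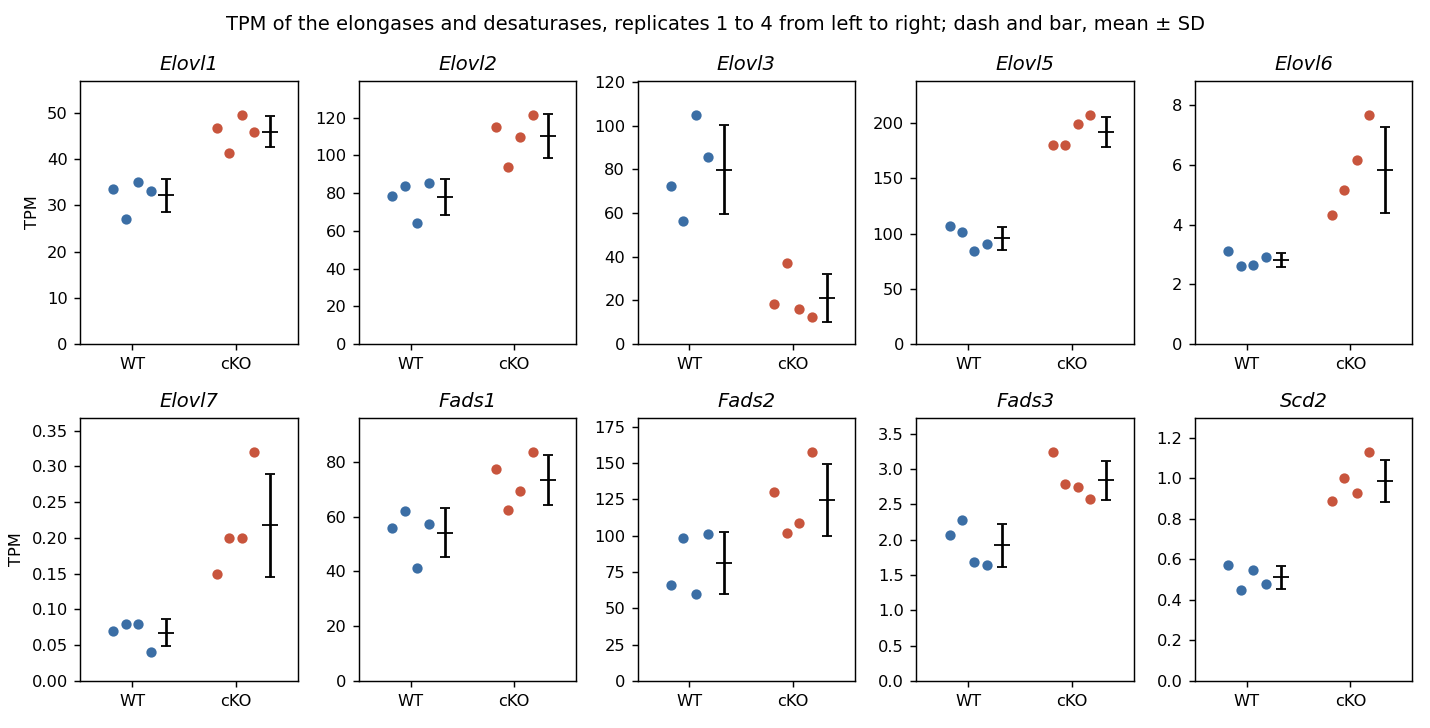
TPM (level corrected for transcript length) of each of the 10 genes in the 4 WT libraries (blue) and the 4 cKO libraries (red), with mean ± SD beside the points and a vertical axis that starts at 0 in each panel. Elovl3 is lower in every cKO library and the other 9 genes are higher in every cKO library on this scale.

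Levels spanned a wide range, and the order is given in TPM. In WT the most abundant member was Elovl5 with 95.9 ± 10.3 TPM, followed by Fads2 with 81.4 ± 21.4, Elovl3 with 79.8 ± 20.4 and Elovl2 with 77.9 ± 9.59 (mean ± SD, n = 4). The ranges of neighbours among these 4 genes overlapped, so their order in WT is not resolved. Fads1 came next with 54.1 ± 8.90 TPM, then Elovl1 with 32.1 ± 3.55 and, far below, Elovl6 with 2.82 ± 0.236 and Fads3 with 1.92 ± 0.31. Scd2 with 0.513 ± 0.0568 TPM and Elovl7 with 0.0675 ± 0.0189 TPM were the least abundant. From Elovl2 downwards the ranges of neighbours did not overlap.

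In cKO livers Elovl5 stood clear of the rest with 191.5 ± 13.5 TPM, and its lowest library, with 179.8, lay above the highest library of Fads2, with 157.5. Fads2 and Elovl2 followed with 124 ± 25.0 and 110.1 ± 11.7 TPM and overlapped with each other. Fads1 had 73.3 ± 9.20 TPM, Elovl1 45.9 ± 3.34, and Elovl3, 3rd in WT, was 6th with 21.0 ± 10.9. Elovl6, Fads3, Scd2 and Elovl7 kept their places at 5.84 ± 1.43, 2.84 ± 0.283, 0.988 ± 0.105 and 0.218 ± 0.0723 TPM. Below Elovl2 the ranges of neighbours in this order did not overlap.

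Elovl6 is the elongase that links fatty acid synthesis to the longer saturated and monounsaturated chains. Its CPM was 15.1, 12.0, 13.6 and 15.9 in WT replicates 1 to 4 and 21.1, 25.1, 29.3 and 36.1 in cKO replicates 1 to 4. All cKO libraries were above all WT libraries, and the cKO libraries spread more widely, with a coefficient of variation of 24.6% in TPM against 8.36% in WT. The log2 change was 0.98 (SE 0.16, edgeR adjusted p = 0.00206).

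Elovl5 extends the products of Fads2 and takes part in making arachidonic acid. It stood at 267, 250, 213 and 225 CPM in the WT libraries and at 404, 405, 425 and 443 CPM in the cKO libraries. The genotypes lay far apart relative to their spread, and the call was the clearest among the members (log2 change 0.81, SE 0.08, edgeR adjusted p = 7.32e-05).

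Elovl2 acts after Elovl5 on longer polyunsaturated chains, on the way to docosahexaenoic acid. WT libraries had 275, 290, 228 and 297.1 CPM and cKO libraries 363, 297.3, 331 and 366 CPM. The genotypes did not overlap, but cKO replicate 2 was only just above WT replicate 4. The log2 change of 0.32 (SE 0.10) passed with an edgeR adjusted p of 0.0302, and the call ended without WT replicate 1 or 3 or without cKO replicate 1, 3 or 4 (edgeR adjusted p 0.0509 to 0.0838, log2 changes 0.24 to 0.34).

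Elovl1 makes very long saturated and monounsaturated chains that are used in sphingolipids. It rose from 34.0, 26.7, 35.7 and 34.1 CPM in WT to 43.7, 38.0, 43.6 and 41.3 CPM in cKO (log2 change 0.35, SE 0.09, edgeR adjusted p = 0.0136). Its annotation overlaps that of the cell cycle gene Cdc20 by 53 bases, and without a known strand setting reads from that stretch cannot be told apart. Cdc20 rose from 0.323 to 0.711 CPM (log2 change 1.14, edgeR adjusted p = 0.0187).

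Elovl7, which extends saturated and polyunsaturated long chains, rested on few counts: 12, 13, 12 and 6 in WT and 22, 35, 25 and 46 in cKO. It had at least 10 counts in 7 of the 8 libraries. The filter asks for 4 libraries at its minimum, which 3 WT and 4 cKO libraries reached, so Elovl7 entered the test through the genotype in which it was higher. All cKO counts were above all WT counts, and the log2 change was 1.27 with the widest error among the members that rose (SE 0.32, edgeR adjusted p = 0.0122).

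Elovl3 is expressed in liver, skin glands and brown fat, and its liver transcript is known to be higher in male than in female mice and to vary over the day. The WT libraries had 91.4, 70.1, 134 and 107 CPM, and the cKO libraries 20.8, 42.1, 17.6 and 13.5 CPM. Every cKO library was below every WT library, and cKO replicate 2 stood above the other cKO libraries. The log2 change was -2.10 (SE 0.41, edgeR adjusted p = 0.0109), and it was -2.53 without cKO replicate 2.

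**Figure D2:**
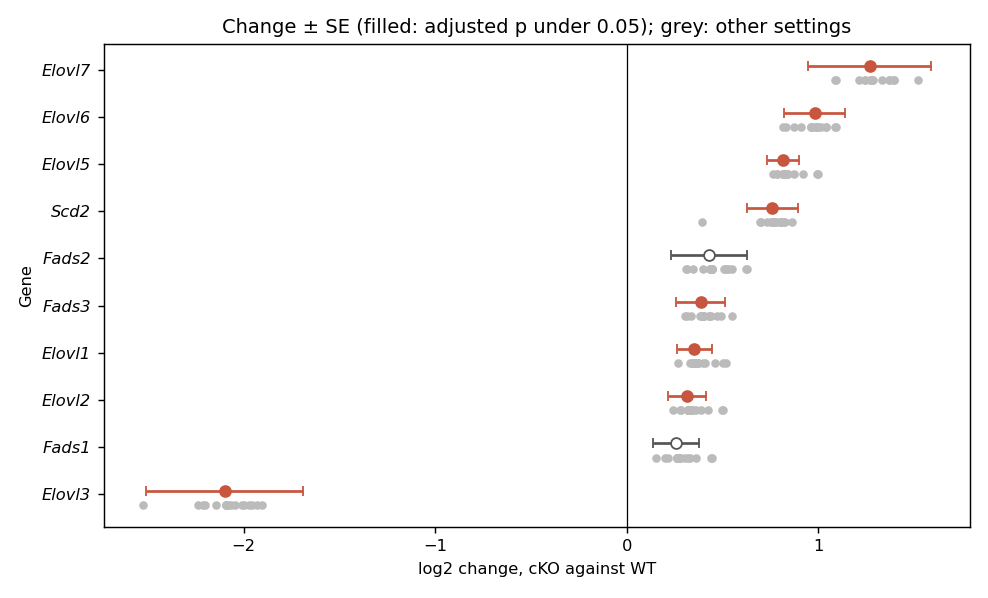
Log2 change in cKO against WT for each gene, with bars for the standard error (coloured and filled where the edgeR adjusted p is under 0.05, open otherwise) and grey points for the values under the other settings and with each library left out. Elovl3 lies near -2.10, all other genes lie above 0 under every setting shown, and Fads1 and Fads2 are the open points.

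The elongase transcripts thus had a different mix in each genotype, which is described here as shares of the summed TPM of the 6 genes without a test. Elovl3 made up 24.6%, 20.8%, 36.0% and 28.7% of that sum in the WT libraries and 5.04%, 10.3%, 4.28% and 3.16% in the cKO libraries. Elovl5 went from 33.3 ± 4.19% to 51.1 ± 1.48% (mean ± SD, n = 4 each) and was the most abundant elongase in every cKO library. In WT replicate 3 Elovl3 exceeded Elovl5, the only library of the 8 in which it did. Elovl2 held 27.0 ± 3.74% and 29.4 ± 2.33%, and Elovl1 11.1 ± 0.877% and 12.2 ± 0.738%, so these shares overlapped. The sum itself was 289 ± 11.6 TPM in WT and 375 ± 16.5 TPM in cKO, and without Elovl3 it was 209 ± 15.7 and 354 ± 26.3 TPM. The TPM of Elovl5 was 1.24 ± 0.133 times that of Elovl2 in WT and 1.75 ± 0.148 times in cKO, with no overlap between the genotypes.

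**Figure D3:**
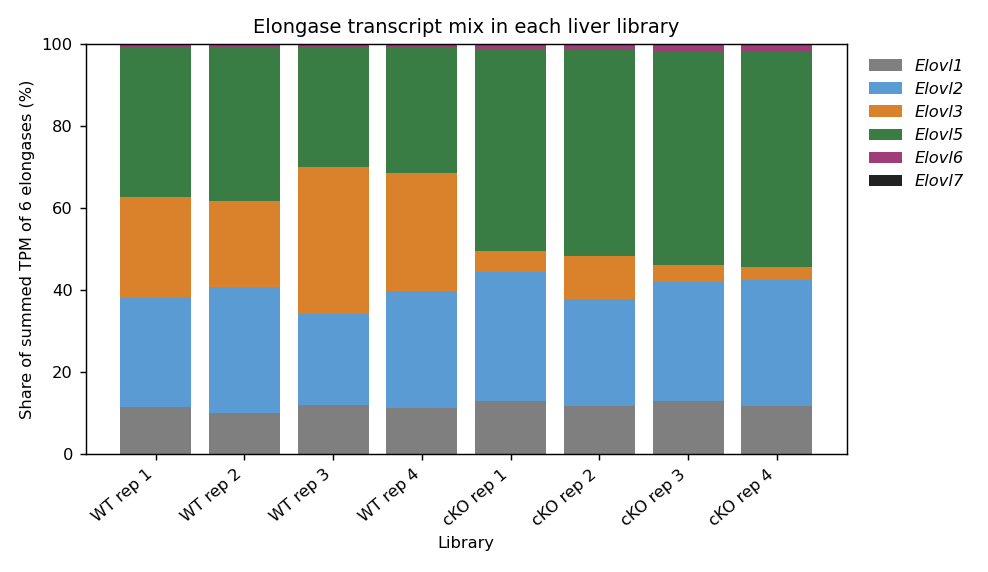
Share of each elongase in the summed TPM of the 6 elongases, as 1 stacked bar for each of the 8 libraries. Elovl3 takes 20.8% to 36.0% in the WT libraries and 3.16% to 10.3% in the cKO libraries, and Elovl5 takes 33.3 ± 4.19% in WT and 51.1 ± 1.48% in cKO.

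Among the desaturases, Scd2 and Fads3 rose. Scd2 is a stearoyl-CoA desaturase that is prominent in brain and in newborn liver, whereas its paralog Scd1 is the main form in adult liver. Scd2 stood at 2.88, 2.24, 2.80 and 2.44 CPM in WT and at 4.06, 4.57, 4.03 and 4.91 CPM in cKO, without overlap (log2 change 0.76, SE 0.13, edgeR adjusted p = 0.00183). On the log2(TPM + 1) scale, which understates changes of such low genes, the log2 change was 0.39. Scd1 varied widely in both genotypes, with WT libraries at 437 to 942 CPM against 405 to 766 CPM for cKO, and the difference did not pass (log2 change -0.44, SE 0.31, edgeR adjusted p = 0.336). The TPM of Scd2 amounted to 0.352 ± 0.134% of that of Scd1 in WT and 0.759 ± 0.15% in cKO.

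Fads3, a desaturase that acts on sphingoid bases, had 6.14, 6.63, 5.04 and 4.82 CPM in WT and 8.61, 7.46, 6.95 and 6.58 CPM in cKO. The lowest cKO library was just below the highest WT library, so the genotypes overlapped, and the call was marginal (log2 change 0.39, SE 0.13, edgeR adjusted p = 0.0416). It ended without WT replicate 1, 3 or 4 or without cKO replicate 1, 2 or 3 (edgeR adjusted p 0.0528 to 0.117, log2 changes 0.31 to 0.43).

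Fads1 and Fads2 insert double bonds near the carboxyl end of polyunsaturated chains, and Fads2 carries out the first step of the pathway. Fads1 had 175, 192, 132 and 179 CPM in WT and 219, 177, 187 and 226 CPM in cKO, and the genotypes overlapped. The change of 0.26 on the log2 scale (SE 0.12) did not pass, with an edgeR adjusted p of 0.125, and depended on WT replicate 3, the lowest library, without which it was 0.15. Fads2 had 84.4, 123, 77.1 and 128 CPM in WT and 148, 118, 118 and 172 CPM in cKO, again with overlap (log2 change 0.43, SE 0.20, edgeR adjusted p = 0.136). Both passed under 3 of 18 other settings each, among them limma on log2(TPM + 1), where the log2 changes were 0.44 for Fads1 and 0.62 for Fads2. These data do not show that either gene was unchanged.

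Elovl2, Fads1 and Fads2 differed among libraries of the same genotype in a common pattern. After the genotype mean was subtracted from log2 CPM, WT replicate 3 was the lowest WT library for all 3 genes, at -0.25, -0.35 and -0.38, and cKO replicate 2 was the lowest cKO library, at -0.19, -0.18 and -0.22. Elovl3 was highest in the same 2 libraries, at 0.45 and 0.98. Over the 8 libraries these deviations of Elovl2 had a Pearson r of 0.96 with those of Fads1 and 0.85 with those of Fads2, and of -0.74 with those of Elovl3. Elovl5, of the same pathway, had r of 0.61 with Fads1, 0.48 with Elovl2 and 0.17 with Fads2. The lowest value of all pairs of members was that of Elovl6 and Fads3, also -0.74. These values are a description over few libraries that share their genotype means and their scaling, and no test was made of them. By the same measure Fads1 was the closest to Elovl2 of the 8806 genes averaging 5 CPM or more, followed by the adhesion gene Nectin2 (r 0.94), which rose. Values of this size are common in such a search: for the other members that were called, the closest genes were Smarce1 and Dbi for Elovl1, Rnf213 and Rnf181 for Elovl3, Zfpm1 and Tsc22d4 for Elovl5, Pir and Hprt for Elovl6, Smad5 and A1cf for Elovl7, Nfkbil1 and Nfya for Fads3, and Flywch1 and Umad1 for Scd2, all with r of 0.94 or more. Of these 14 genes, Tsc22d4 and Hprt rose in cKO, and the others did not pass.

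**Figure D4:**
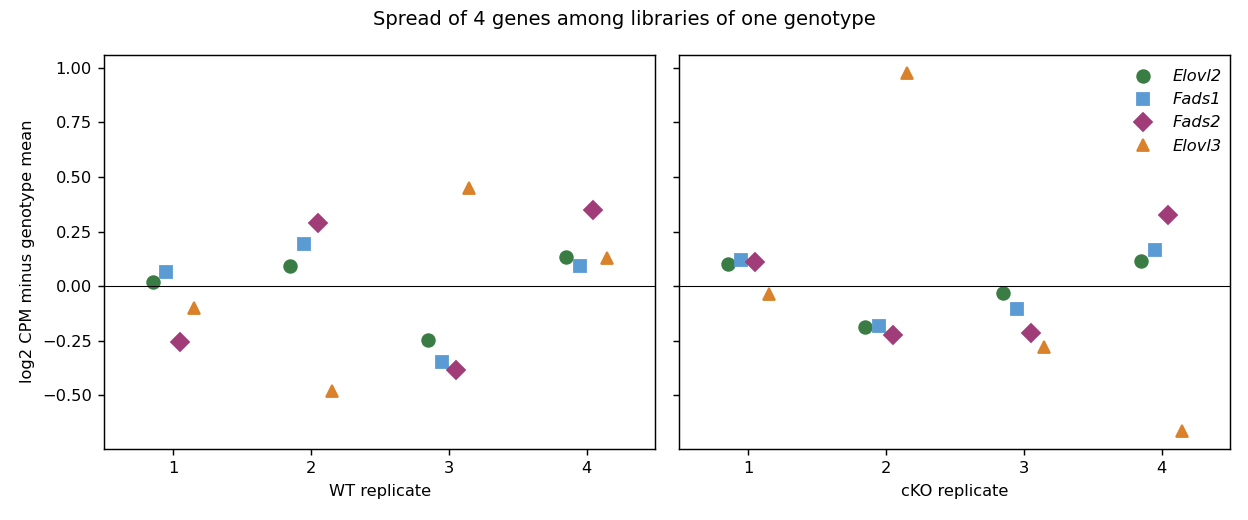
Log2 CPM minus the mean of the genotype for Elovl2, Fads1, Fads2 and Elovl3 in the 4 WT libraries (left) and the 4 cKO libraries (right), with points set side by side within a replicate. Elovl2, Fads1 and Fads2 are lowest in WT replicate 3 and cKO replicate 2, where Elovl3 is highest, at 0.45 and 0.98.

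The other genes of the pathway were taken from 9 lists. In these lists, with 86 genes of fatty acid synthesis and use, 78 were tested and their median log2 change was 0.13. Of these, 17 rose and 13 fell, which is 38.5% against 30.1% of all tested genes. The 17 include Mboat1 and Mboat2, which had enough counts to be tested only through the cKO libraries, where they were higher. Of the partners that complete each turn of elongation, 6 were tested: Hacd1, one of the dehydratases, rose (8.07 ± 0.174 to 10.9 ± 1.26 CPM, log2 change 0.43), 5 did not pass and the median was 0.17. Without passing, the ketoacyl reductase Hsd17b12 had 0.26 (edgeR adjusted p = 0.055) and the enoyl reductase Tecr -0.20 (edgeR adjusted p = 0.0639). Of the remaining elongases and desaturases, Elovl4, Scd3 and Scd4 were below the filter, and of 4 tested, Degs1, which desaturates dihydroceramide, rose (log2 change 0.45, edgeR adjusted p = 0.00129), with a median of 0.16. For the electron supply, 5 genes were tested with a median of -0.12: the reductase Cyb5r4 rose (log2 change 0.42), Cyb5r3 fell (-0.32), and Cyb5a, the abundant cytochrome b5 of liver, had -0.26 without passing (edgeR adjusted p = 0.0897).

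Supply of palmitate and malonyl-CoA was split. Of 12 genes 4 rose and 2 fell, with a median of 0.26. Acaca and Acacb, the acetyl-CoA carboxylases that make malonyl-CoA, had log2 changes of 0.58 and 0.54, and Oxsm, of mitochondrial fatty acid synthesis, and the malic enzyme Me1 had 0.33 and 0.42. Fasn, which makes palmitate, fell from 53.4 ± 6.87 to 38.0 ± 4.63 CPM, and Slc25a1, the citrate carrier, had a log2 change of -0.30.

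Regulators of these genes were mostly lower where they were called, with 7 of 14 lower, 1 higher and a median of -0.18. Srebf1, whose product activates genes of fatty acid synthesis, had 29.1, 35.9, 50.7 and 27.3 CPM in WT and 23.3, 19.6, 18.1 and 15.9 CPM in cKO, without overlap (log2 change -0.89, edgeR adjusted p = 0.0142). Insig1, a sterol sensor and itself an SREBP target, fell from 82.6 ± 14.9 to 41.5 ± 12.7 CPM. Scap, which escorts SREBP, and Srebf2 had log2 changes of -0.30 and -0.44, and Mbtps2, a protease that releases SREBP, was higher at 0.44. Mlxipl, the gene of ChREBP, fell from 280 ± 34.3 to 191 ± 39.7 CPM (log2 change -0.55, edgeR adjusted p = 0.0209). Elovl5, Elovl6 and Scd2 rose, as did Acaca, Acacb, Oxsm and Me1, whereas Srebf1, Fasn and Slc25a1 fell. The part of these regulators in the changes of the members was not tested.

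**Figure D5:**
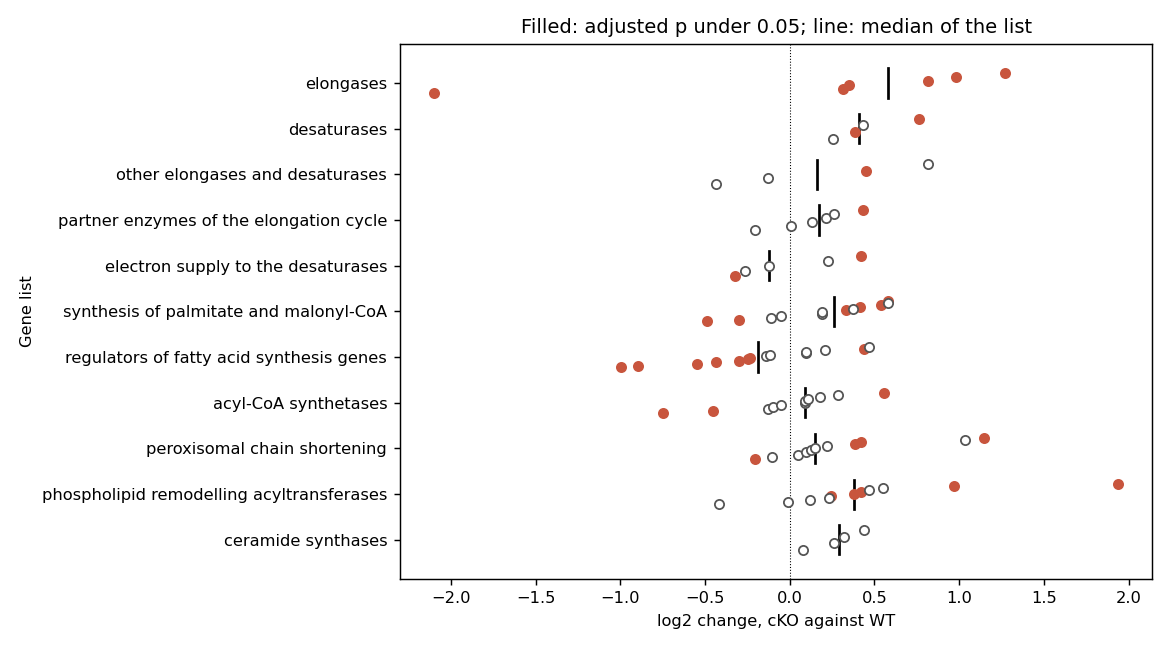
Log2 change in cKO against WT of every tested gene in the elongase and desaturase groups and the 9 lists of other genes of fatty acid synthesis and use, filled where the edgeR adjusted p is under 0.05, with a line at the median of each list. Elovl3 lies at -2.10, below every gene of the 9 lists, and the median of the regulators is -0.18.

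Genes that use the products were also compared. Of 11 acyltransferases that place fatty acids into phospholipids 5 rose and 6 did not pass, with a median of 0.38. Agpat5, Lclat1 and Agpat3 had log2 changes of 0.42, 0.38 and 0.25. The other 2, Mboat1 and Mboat2, reached the minimum of the filter in 4 cKO and 0 WT libraries. They were thus tested only because they were higher in cKO. The count of 5 and the median of 0.38 include both genes, whose rise gives no support to a rise of the list. Of 11 genes of peroxisomal chain shortening, which completes docosahexaenoic acid, 3 rose and 1 fell with a median of 0.15. Ehhadh went from 1051 ± 216 to 2328 ± 356 CPM, the transporter Abcd3 had a log2 change of 0.42, and Acox3 had -0.21. Among 11 acyl-CoA synthetases, with a median of 0.09, Acsl4, which prefers arachidonic acid, rose (12.1 ± 3.15 to 17.7 ± 2.66 CPM, log2 change 0.55), and Acsm1 and Acsm5, which act on medium chains, fell (log2 changes -0.75 and -0.45). The 4 ceramide synthases tested, which take up very long chains, had a median of 0.29 and did not pass, with Cers5 nearest to it (log2 change 0.32, edgeR adjusted p = 0.0507).

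Elovl3 is a gene of sex-biased and of daily expression in liver, so lists of both kinds are given beside it. Of 15 genes known to be higher in male liver 10 fell and 5 did not pass, with a median of -1.20. Of 14 tested genes known to be higher in female liver 7 rose and 1 fell, with a median of 1.07. Over all tested genes 14.9% fell and 15.2% rose. Hsd3b5, a male-biased steroid dehydrogenase, stood at 13.4, 12.3, 21.0 and 12.9 CPM in WT, and no cKO library had more than 0.691 CPM. As with Elovl3, WT replicate 3 was the highest WT library and cKO replicate 2 the highest cKO library. Mup3 and Cspg5 were also highest in these libraries of each genotype. Serpina12 was not: it was highest in WT replicate 4 (3.14 CPM), and cKO replicate 2 was its lowest library (0.115 CPM). Serpina12, Mup3 and Cspg5 had log2 changes of -3.27, -1.42 and -1.73, and of the female-biased genes Cyp2a4, Rtn4, Hao2 and Cyp17a1 had 3.94, 1.17, 4.18 and 1.76, with Cyp2g1 at -1.21. Of 19 clock genes 5 fell and 1 rose, with a median of -0.18: the output factor Dbp, Tef, Nfil3 and Cry2 had log2 changes of -0.41, -0.32, -1.04 and -0.24, and Nr1d2 had 0.24. Nr1d1, a repressor of the clock, had 147, 104, 133 and 80.5 CPM in WT and 91.8, 50.6, 46.4 and 39.1 CPM in cKO, with overlap (log2 change -1.03, edgeR adjusted p = 0.0488). The 6 clock genes called of 19 compare with 30.1% of all tested genes, so that share is near the background. The filter was passed on the WT libraries alone by 2 of the 10 male-biased genes that fell, Hsd3b5 and Serpina12. It was passed on the cKO libraries alone by 2 of the 7 female-biased genes that rose, Hao2 among them. The counts and medians above include these genes. The part of the differences in these lists in the fall of Elovl3 was not tested.

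Some sets of markers of cells other than hepatocytes moved with the genotype, and others overlapped between the genotypes. Of 14 stellate cell and fibroblast markers 13 rose and 1 did not pass, and their summed TPM was 204 to 224 in WT and 344 to 467 in cKO. Of 10 markers of lipid-associated macrophages 6 rose, with sums of 29.6 to 39.8 and 67.6 to 124 TPM, and of 9 tested T and NK cell markers 6 rose, with sums of 4.26 to 5.61 and 7.38 to 16.2 TPM. The filter was passed on the cKO libraries alone by 1 of these 6 macrophage genes and 4 of these 6 T and NK cell genes. The counts include these genes, which were tested only through the genotype in which they were higher. Over all tested genes 15.2% rose and 14.9% fell. Sinusoidal endothelial markers (1 of 12 higher, sums 107 to 201 and 169 to 245 TPM) and Kupffer cell markers (1 of 12 higher, sums 306 to 467 and 294 to 463 TPM) overlapped between the genotypes. Cholangiocyte markers (2 higher and 1 lower of 7 tested, sums 33.8 to 44.2 and 30.6 to 36.7 TPM), mesothelial markers (1 of 5 higher, 1.19 to 2.51 and 2.10 to 4.45 TPM), and B cell, neutrophil and erythroid markers (6, 3 and 5 tested, which did not pass, with sums of 6.40 to 11.9 and 6.45 to 12.6, 3.20 to 5.11 and 4.39 to 20.8, and 154 to 521 and 252 to 533 TPM) overlapped as well. Of the 7 adipocyte markers none passed the filter, Lep was at 0 in all libraries, and the sum was at most 0.27 TPM in any library. The part of other cell types in the rise of the members, such as Scd2, Fads3, Elovl7 and Elovl1, was not tested. In whole liver, more cells of a type and more RNA per cell cannot be told apart.

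Neighbouring genes were compared from the same fit. Around the 10 genes, taking the 3 nearest tested genes with a position on each side, there were 48 other genes, of which 5 rose and 7 fell, or 25.0% against 30.1% of all tested genes, and their median log2 change was -0.01. Elovl3 (chromosome 19, 46131897 to 46135694 in mm10) had Ldb1 as its one called neighbour of 6, with a log2 change of -0.21. Next to Elovl5 (chromosome 9, 77917365 to 77984519) Lrrc1 rose (1.19, at 0.327 CPM in WT, tested through its cKO libraries) and Gclc, of glutathione synthesis, and C920006O11Rik fell (-0.40 and -0.52). Around Elovl6 (chromosome 3, 129532386 to 129638495) Gar1 rose (0.42), and around Elovl2 (chromosome 13, 41182382 to 41220403) Gcnt2 and Nedd9 rose (0.39 and 0.73). Fads3, Fads2 and Fads1 lie side by side on chromosome 19 between 10040855 and 10196874, and Tmem258, just beyond Fads1, fell (log2 change -0.58, edgeR adjusted p = 0.00211). Near Scd2 (chromosome 19, 44293676 to 44306864) Cwf19l1, Sec31b and Ndufb8 fell (-0.34, -0.42 and -0.21), so that the rise of Scd2 stood among genes that were lower or did not pass.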

How the data were processed

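Whole-liver RNA was isolated with Trizol and converted to TruSeq libraries, per the labels' protocols. The submitters' processing notes name STAR 2.5.1, RSEM and mm10. Not given in the sources used here: strandedness, gene annotation and RSEM version. Each deposited table lists expected counts (RSEM's estimated counts, which divide reads shared between genes), TPM and effective lengths, per the file headers. Expected counts of 9 members were whole in all 8 libraries and those of Scd2 in 3.

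Counts were rounded, filtered with filterByExpr (minimum count 10, minimum total 15), scaled with TMM and tested with edgeR 4.0.16 (estimateDisp, robust glmQLFit, glmQLFTest, R 4.3.3), with Benjamini-Hochberg adjustment over all 15562 genes at 0.05. Standard errors come from the F statistic. The scripts were tested on simulated data. P values measure the spread between samples, which may be technical. Libraries of one genotype differed by more than sampling noise in every pair (chi-square over degrees of freedom at least 28.5).

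Members and lists were chosen with earlier results of these data known. The naming rule took all members, Ctcf, up to 4 called genes of each list with the smallest p and 1 of the opposite direction, called neighbours and the 2 closest genes of each called member. Scd1, Hsd17b12, Tecr, Cyb5a, Oxsm, Me1, Mlxipl, Cers5 and Nr1d1 were added after their values were seen. One gene that the rule names is not reported here. Positions and promoters came from RefSeq's GRCm38.p6 (mm10), and 14215 tested genes had a position. A planned comparison of proteins was not run here. Alternatives were RLE factors, library size alone, offsets for effective length, a minimum of 1 CPM in 4 libraries, no filter, a replicate block, DESeq2 1.42.0, limma-voom, limma 3.58.1 on log2(TPM + 1) and log2(TPM + 0.1) of genes with a mean TPM of at least 0.5, and leaving out each library.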

Additional observations from a re-analysis of the deposited data

How the results depend on the processing

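Over the 10 members and 18 alternatives, 177 values could be computed, since Elovl7 did not reach the minimum of the 1 CPM filter or of both TPM fits. None of the 177 reversed its direction, and 159 stayed on the same side of the threshold. Elovl1, Elovl5, Elovl6 and Scd2 were called under all 18 alternatives and Elovl7 under all 15 it entered. Fads1 passed with library size alone (log2 change 0.36, edgeR adjusted p = 0.0373) and with limma on log2(TPM + 1) and log2(TPM + 0.1) (0.44 and 0.44, adjusted p 0.0349 and 0.0499), and Fads2 with DESeq2 (0.43, adjusted p = 0.0491), limma on log2(TPM + 1) (0.62, adjusted p = 0.0427) and the replicate block (0.45, edgeR adjusted p = 0.0493). When each library was left out in turn, log2 changes ran from 0.24 to 0.39 for Elovl2, from 0.31 to 0.47 for Fads3, from 0.15 to 0.33 for Fads1 and from 0.31 to 0.55 for Fads2, and 5 to 7 members were called higher. With library size alone 3604 genes were higher and 1318 lower, against 2367 and 2322 with TMM. The labels do not say what the replicate numbers share: deviations of same-numbered libraries correlated at 0.042 to 0.057, and 3 of 4 WT libraries correlated best with their own number. With that block 8 members were called higher and 0 lower, since Elovl3 had a log2 change of -2.21 with an edgeR adjusted p of 0.0567. The limit of depth was reached in Elovl7, with 6 to 46 counts.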

Other observations

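RSEM's effective length of a gene is a mean over its transcripts weighted by their estimated abundance, so it moves when the estimated mix of transcripts moves. It was nearly constant for most members, such as Fads1, with 3277 bases in WT and 3275 in cKO. For Elovl6 it was 5079, 4862, 5274 and 5715 bases in the WT libraries and 5657, 5630, 5770 and 5717 bases in the cKO libraries, and WT replicate 4 lay among the cKO values. For Elovl7 it was 3832, 3835, 3498 and 3834 bases in WT and 3218, 3840, 2806 and 2925 in cKO, on the few counts given above. With an offset for effective length the log2 changes were 0.87 for Elovl6 and 1.52 for Elovl7, against 0.98 and 1.27 without it, and both passed. Single transcripts were not analysed here.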
